A study of Mus musculus with 56 samples.

Results

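The nuclear genes of oxidative phosphorylation were taken from the study's expression tables by name: every mouse gene whose symbol begins with Nduf, Uqcr, Atp5, Cox4, Cox5, Cox6, Cox7 or Cox8, or is Sdha, Sdhb, Sdhc or Sdhd, pseudogenes left out. This gave 89 genes of 13451 in the table of sorted cells and the same 89 of 12935 in the day 10 table. By complex they were 36 subunits of complex I, 8 complex I assembly factors (Ndufaf genes), 4 subunits of complex II, 8 of complex III, 15 of complex IV and 18 genes of complex V. Ndufa4 and its paralogue Ndufa4l2, named after complex I, were counted with complex IV, where the Ndufa4 protein belongs. Atp5o stood in 2 rows with separate identifiers, ENSMUSG00000022956 and ENSMUSG00000116933, between which reads may be split. Cox4i2, Cox6a2, Cox7a1, Cox8b and Cox8c were in neither table, and the 13 genes encoded by mitochondrial DNA were not analysed here.

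The study followed mouse embryonic fibroblasts (MEFs) carrying the OG2 transgene, a green fluorescent protein (GFP) reporter driven by Oct4, through reprogramming to induced pluripotent stem cells (iPSCs) with Oct4, Sox2, Klf4 and Myc (OSKM). In the sorted series every culture carried a doxycycline-inducible lentiviral OSKM cassette with rtTA, and either a control hairpin against luciferase (shLuci, called control here) or a hairpin against Ctcf (shCTCF), the gene of the chromatin-looping and insulator protein CTCF. RNA was sequenced from cells at day 0 (D0), from Thy1+, SSEA1-Thy1- and SSEA1+ cells at days 3, 6 and 9 (D3, D6, D9), and from GFP+ cells at day 12 (D12), which makes 11 populations with 2 libraries of each hairpin and 44 libraries in all. In the day 10 series, OSKM came from retroviruses, and unsorted cells carried a control, a CTCF retrovirus (pMXs), or the CTCF retrovirus with a hairpin against the chromatin remodeller gene Smarca5, with 2 libraries of each, and 1 library each of MEFs and iPSCs was deposited beside them. Thy1 is a fibroblast surface protein that is lost early in reprogramming, SSEA1 is a carbohydrate antigen gained by the cells that advance, and GFP+ cells have switched on the Oct4 reporter. The labels do not say whether the 2 libraries of a group came from separate cultures, so the p-values measure the spread between these libraries, which may be technical.

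Oxidative phosphorylation passes electrons from NADH and succinate along the inner mitochondrial membrane and uses the resulting proton gradient to make ATP. Complex I (NADH dehydrogenase) and complex II (succinate dehydrogenase) feed electrons through ubiquinone to complex III (cytochrome bc1), cytochrome c carries them to complex IV (cytochrome c oxidase), and complex V (ATP synthase) makes ATP. Complex I is built stepwise with the help of the Ndufaf proteins, which are not part of the finished enzyme. Fibroblasts lean on respiration, pluripotent cells are known for a high rate of glycolysis, and reprogramming is known to pass through a change in mitochondrial metabolism. In bulk libraries such as these, fewer cells of a type and less RNA per cell cannot be told apart.

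Values are given as the authors' score, a normalized and rounded expression value per gene, and fold changes are on the log2(score + 1) scale with their standard error (SE). A gene is called higher or lower, or is said to have risen or fallen, where limma's moderated test gave a Benjamini-Hochberg adjusted p below 0.05 over all genes of the table. In every comparison the 2 libraries of each group are given in label order. The genes of oxidative phosphorylation made up 0.354% to 0.600% of the total score of a sorted library and 1.08% to 1.23% of a day 10 library. Sorted cells carried the markers of their labels: in control libraries the summed score of 11 pluripotency genes was 286 to 288 at D0 and 59586 to 60072 in D12 GFP+ cells, and that of 9 fibroblast genes was 79825 to 88047 at D0 and 12984 to 13770 at D12. Some populations carried more fibroblast RNA than others of their kind. D9 SSEA1-Thy1- control cells had a mean Thy1 score of 3012.5 and a fibroblast marker sum of 89264 to 89431, near the Thy1 score of 3121 and the marker sum of D0 cells. The fibroblast sum of D9 SSEA1+ control cells was 34600 to 34701 against 3449 to 3708 at D6, and that of D12 GFP+ hairpin cells 37924 to 38368. Ctcf itself was lower under its hairpin, by a mean log2 of -1.11 ± 0.03 (SE, 11 populations with 2 libraries per arm, limma adjusted p = 8.73e-22), between -0.52 at D0 and -1.81 at D12.

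A property of the libraries touches all that follows. These genes have short transcripts, with a median length of 755 bp against 2741 bp for all genes, and short genes moved together between libraries. The median deviation of the 89 genes from their own means ran from -0.536 to 0.537 (log2) over the 44 libraries, and that of 1038 other genes under 1 kb from -0.371 to 0.353. Across the 44 libraries the correlation between these medians was r = 0.917, a description only, since the points share libraries and short transcripts. In 12 of 22 groups the 2 libraries differed by more than 0.2 in the median of the 89 genes, by up to 0.494 in control D3 SSEA1+ cells. The part of transcript length in the results was not tested. Counts were therefore also taken after centring each library on those other short genes, an alternative chosen after seeing the data. In sorted cells, each median of the 89 genes below stands beside that of other genes under 1 kb or its centred value. Medians of single complexes, of other gene lists, and of the day 10, MEF and iPSC libraries are given without either.

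**Figure D1:**
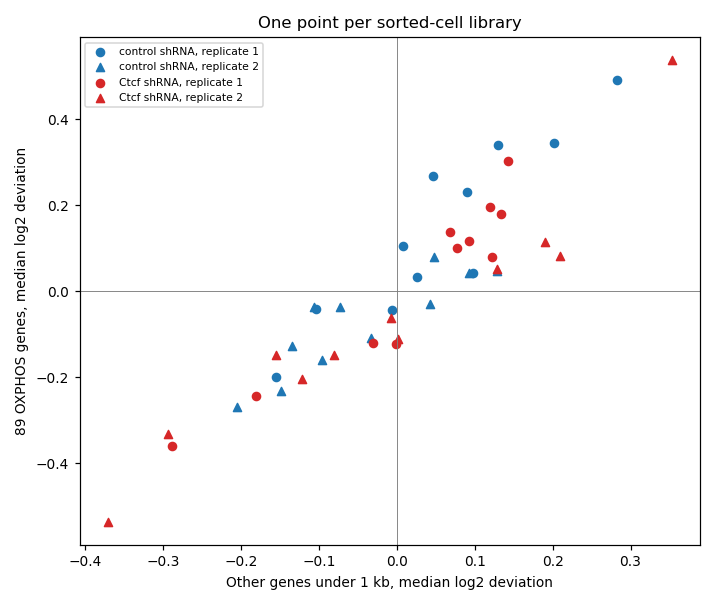
Each point is 1 of the 44 sorted-cell libraries, with the median deviation of other genes under 1 kb on the x axis and that of the 89 genes of oxidative phosphorylation on the y axis, both in log2(score + 1) relative to each gene's mean over the libraries. The points lie along a rising band, and the y values span -0.536 to 0.537.

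The genes with the largest differences between D0 and D12 were 3 paralogues of complex IV genes, Ndufa4l2, Cox6b2 and Cox7b2. Ndufa4l2 is known as a target of the hypoxia response, and Cox6b2 and Cox7b2 are known as testis isoforms of subunits that other tissues take from Cox6b1 and Cox7b. In control cells Ndufa4l2 scored 8 and 3 at D0, and between 0 and 5 in all 6 D3 libraries. At D6 it scored 144 and 153 in Thy1+ cells, 50 and 44 in SSEA1-Thy1- cells and 36 and 60 in SSEA1+ cells, and at D9 196 and 264, 57 and 54, and 56 and 64 in the same order. In D12 GFP+ cells it scored 132 and 168. The D6, D9 and D12 libraries thus all lay above the D0 and D3 libraries, and Thy1+ cells were highest at both D6 and D9.

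Cox6b2 scored 20 and 10 at D0 and was above this in every later control library. At D3 it scored 95 and 109 in Thy1+ cells, 174 and 126 in SSEA1-Thy1- cells and 279 and 212 in SSEA1+ cells, an order without overlap. From D6 to D9 the control libraries lay between 182 and 364, and D12 GFP+ cells scored 465 and 368. Cox7b2 was listed at 0 in 13 of the 20 control libraries before D12, scored at most 46 in the others, and stood at 544 and 456 in D12 GFP+ cells. Cox7b2 thus appeared late and Cox6b2 early.

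Per kilobase of transcript, the partner isoforms remained the higher ones at D12. Ndufa4 scored 3880 ± 507 per kb (SD, n = 2) in D12 GFP+ cells against 161 ± 27.3 for Ndufa4l2, and Cox7b 2123 ± 284 against 923 ± 115 for Cox7b2. Cox6b1 went from 1983 ± 36.4 per kb at D0 to 1375 ± 146 at D12, while Cox6b2 went from 34.5 ± 16.3 to 957 ± 158. At D12 the 2 libraries of Cox6b1 (1477 and 1272 per kb) still lay above those of Cox6b2 (1069 and 846 per kb). Against D0, none of the partners passed the test: Cox6b1 differed by -0.53 ± 0.28 (limma adjusted p = 0.0882), Ndufa4 by -0.12 (adjusted p = 0.684) and Cox7b by 0.36 ± 0.32 (adjusted p = 0.312).

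**Figure D2:**
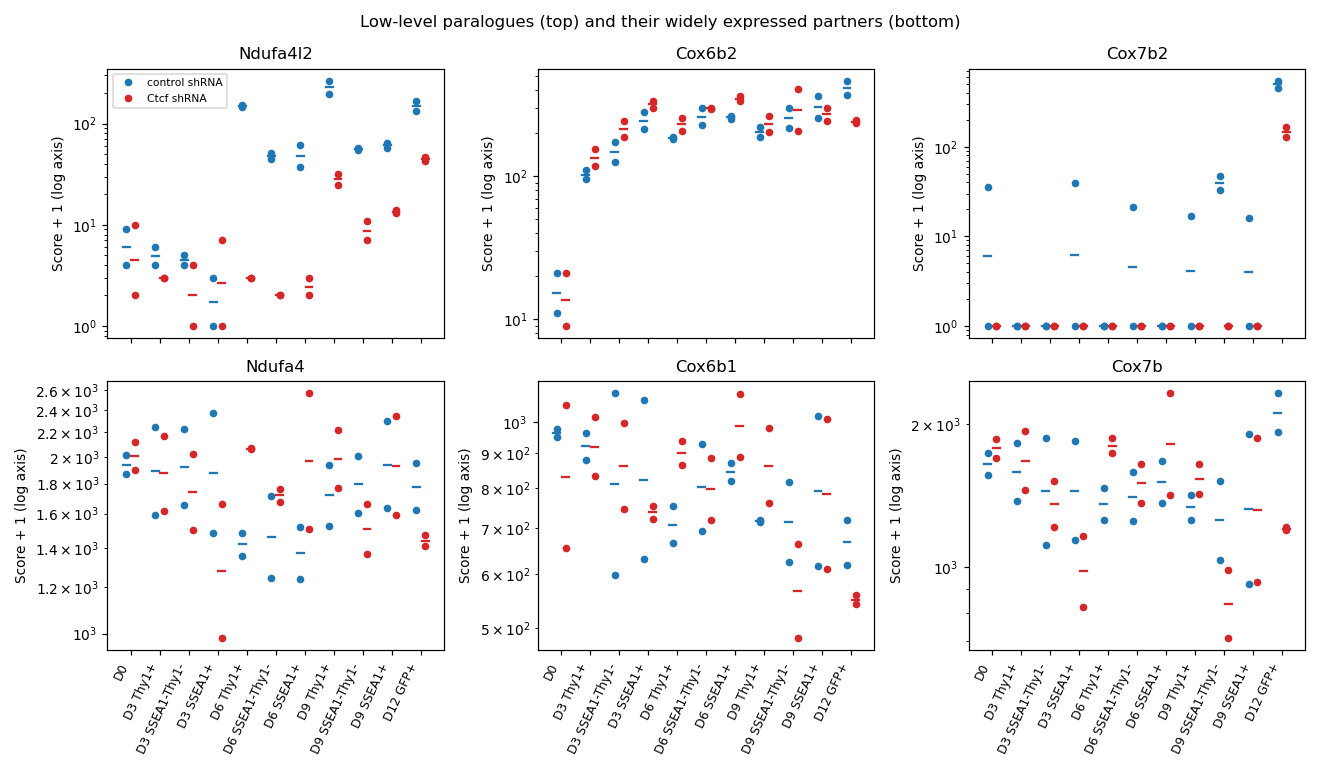
Score + 1 on a log axis for Ndufa4l2, Cox6b2 and Cox7b2 (top) and their partners Ndufa4, Cox6b1 and Cox7b (bottom) in the 11 sorted populations; points are libraries (blue control, red Ctcf hairpin) and bars the geometric mean of score + 1. The top row spans from 0 to 544, and under the Ctcf hairpin Cox7b2 is above 0 in D12 GFP+ cells alone.

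The 250 bases before the transcription start of the Cox6b pair and of Cox7b2 are shown because Cox6b2 and Cox7b2 were called higher at D12 than at D0. Cox6b1, which encodes a protein related to that of Cox6b2, was not called. They are RefSeq sequences of GRCm38.p6, printed 5′ to 3′ on the gene's strand: Cox6b1 at chr7:30626115-30626364, Cox6b2 at chr7:4753095-4753344 and Cox7b2 at chr5:71548206-71548455, all on the minus strand. Capitals mark a match to a motif searched for, an ETS site (CCGGAAG) on the other strand in Cox6b1; no capitals means that none of the searched letters were found.
Cox6b1: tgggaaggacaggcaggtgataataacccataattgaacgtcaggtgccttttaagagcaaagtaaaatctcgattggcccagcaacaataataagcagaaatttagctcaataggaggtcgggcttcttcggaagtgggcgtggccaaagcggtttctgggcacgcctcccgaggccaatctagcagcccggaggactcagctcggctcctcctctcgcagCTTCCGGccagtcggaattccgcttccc
Cox6b2: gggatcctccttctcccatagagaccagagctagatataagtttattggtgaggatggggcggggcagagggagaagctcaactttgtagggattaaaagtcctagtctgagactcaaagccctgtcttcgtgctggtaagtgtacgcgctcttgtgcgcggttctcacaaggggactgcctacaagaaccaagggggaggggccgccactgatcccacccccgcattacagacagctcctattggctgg
Cox7b2: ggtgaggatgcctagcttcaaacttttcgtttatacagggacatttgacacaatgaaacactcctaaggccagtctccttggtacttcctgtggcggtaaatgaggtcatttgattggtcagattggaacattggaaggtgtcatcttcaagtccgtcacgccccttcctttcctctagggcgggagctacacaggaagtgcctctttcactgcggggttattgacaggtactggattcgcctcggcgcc
The Cox6b1 gene lies at chr7:30616861-30626151, Cox6b2 at chr7:4751792-4753094, Cox7b2 at chr5:71442824-71548205 (minus strand, GRCm38) and Ndufa4l2 at chr10:127514967-127517154 (plus strand). These gene spans are GENCODE's and the windows RefSeq's; the GENCODE start of Cox6b1 lies upstream of the RefSeq start, so its window overlaps the gene span.

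Short motifs known from mitochondrial gene promoters or from CTCF were searched for on both strands, in windows of 250 bases before to 50 after the start, of which RefSeq gave 77 for 72 of the 88 symbols. NRF1 letters (GCATGCGC) stood in 15.6% of these windows against 2.71% of all 32851 windows, ETS letters (CCGGAAG, the GABP site) in 23.4% against 8.86%, YY1 letters (AAGATGGC) in 13.0% against 2.75%, and ERR letters (AAGGTCA) in 10.4% against 4.72%. An E-box (CACGTG) stood in 7.79% against 7.15%, and a core of the CTCF motif (AGGGGGC) in 10.4% against 10.6%. In 36 of the 77 windows none of these letters were found. A match is a string of letters, not a bound site.

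Between fibroblasts at D0 and GFP+ cells at D12, calls were found in both directions. In control cells 19 of the 89 genes were higher at D12 and 6 were lower (21.3% and 6.74%), against 40.1% higher and 40.2% lower of all genes, so a smaller share of these genes changed than of genes at large, in both directions. The median difference was 0.07, beside -0.01 for all genes and -0.08 for other genes under 1 kb. Complex IV had the highest median difference, 0.36, with 4 of 15 genes higher and 0 lower, and complex II had 0 higher and 1 lower of 4. All 9 fibroblast markers were lower and all 11 pluripotency markers higher in the same comparison. Without D12 replicate 1 the count was 12 higher and 11 lower, and without D12 replicate 2 it was 2 lower. After centring on other short genes, 31 were higher and 6 lower, against 5527 and 4615 of all 13451 genes.

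In complex V, the 2 genes of the catalytic head rose. Atp5a1, the alpha subunit, scored 18606 and 17637 at D12 and 8128 and 7878 at D0, a rise of 1.18 ± 0.06 (limma adjusted p = 2.41e-16). Atp5b, the beta subunit, scored 34312 and 33313 against 22012 and 19578, a rise of 0.70 ± 0.08 (adjusted p = 2.02e-08). Of the 3 genes that encode the same c subunit of the membrane ring, Atp5g2 rose by 1.17 ± 0.19 from 844 and 907 to 2060 and 1892 (adjusted p = 2.18e-06). Atp5g1 rose by 0.62 ± 0.18 from 1022 and 933 to 1649 and 1360, a call lost without D12 replicate 1 (adjusted p = 0.0584), and Atp5g3 differed by -0.01 (adjusted p = 0.982). Per kilobase the order at D0 was Atp5g3 (3394 ± 67.9), Atp5g2 (1494 ± 76.0) and Atp5g1 (365 ± 23.5), and at D12 Atp5g2 (3372 ± 203) lay within the spread of Atp5g3 (3425 ± 837). This order depends on the lengths used, medians over annotated transcripts of 718.5 bp for Atp5g3, 586 bp for Atp5g2 and 2675.5 bp for Atp5g1. By score, Atp5g1 lay above Atp5g2 at D0, and the length of the transcripts expressed here was not measured. Atp5c1, the gamma subunit, scored higher by 0.24 without passing (adjusted p = 0.0801), and the rows of Atp5o, part of the stalk, differed by 0.07 and 0.02 (adjusted p = 0.698 and 0.916).

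In complex IV, the calls were Cox6b2, Cox7b2, Ndufa4l2 and Cox7c. Cox6b2 rose by 4.77 ± 0.32 (limma adjusted p = 2.14e-13) and Ndufa4l2 by 4.64 ± 0.70 (adjusted p = 1.12e-06), both without overlap between the groups. Cox7b2 was higher with adjusted p = 0.000417; with 1 D0 library listed at 0 and the other at 35, its fitted difference depends on the 1 added to each score. Cox7c, a small nuclear subunit, scored 2374 and 1759 against 1034 and 972, a rise of 1.03 ± 0.36 (adjusted p = 0.0118) that was lost without D12 replicate 1 or D0 replicate 2 (adjusted p = 0.0519 to 0.102). The ubiquitous subunits showed smaller differences that did not pass: Cox4i1 0.06 (2605 to 3114 at D12, 2684 to 2784 at D0), Cox5a -0.15, Cox5b 0.18, Cox6c 0.43 and Cox8a 0.52, with adjusted p from 0.0577 for Cox8a to 0.791 for Cox4i1.

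In complex I, 7 of 36 subunits were higher and 3 lower. Ndufv1, the subunit that binds NADH, scored 1198 and 996 against 796 and 887, a rise of 0.38 ± 0.13 (limma adjusted p = 0.0107) that was lost without D12 replicate 1 or D0 replicate 1 (adjusted p = 0.0959 to 0.162). Ndufa9, an accessory subunit at the junction of the arms, fell by 0.51 on the log2 scale, from 1300 and 1504 to 1011 and 958 (adjusted p = 0.000636). Ndufa6, another accessory subunit, rose by 0.95 ± 0.33 from 472 and 350 to 940 and 656 (adjusted p = 0.0102). Ndufa8 fell from 644 and 640 to 482 and 396, and Ndufa3 from 159 and 110 to 74 and 62. Ndufa8 lost its call without D12 replicate 2 (adjusted p = 0.0727), and Ndufa3 without D12 replicate 2 or D0 replicate 1 (adjusted p = 0.0775 to 0.133). The iron-sulfur subunit Ndufs1 differed by 0.18 (adjusted p = 0.0774), a difference that passed without D0 replicate 2 (0.28, adjusted p = 0.0228), and Ndufb8 differed by 0.18 (adjusted p = 0.508).

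The assembly factors moved both ways. Ndufaf6 rose from 90 and 103 to 162 and 182 (0.83 ± 0.16, limma adjusted p = 3.55e-05), and Ndufaf3 from 60 and 58 to 94 and 93 (0.66 ± 0.19, adjusted p = 0.0034). Ndufaf4, known as the binding partner of Ndufaf3, fell from 1992 and 1923 to 1485 and 1220 (by 0.54 on the log2 scale, adjusted p = 0.00122). Ndufaf5, which modifies the subunit Ndufs7, was lower by 0.42 (adjusted p = 0.0482), a call lost without any 1 of the 4 libraries (adjusted p = 0.0543 to 0.217). In complex II, Sdhd, a membrane anchor, fell from 1876 and 2034 to 1596 and 1498 (adjusted p = 0.0294), lost without D0 replicate 2 or D12 replicate 2 (adjusted p = 0.13 to 0.146). Sdha, Sdhb and Sdhc, the flavoprotein, the iron-sulfur protein and the other anchor, differed by -0.02, -0.04 and 0.09, with adjusted p from 0.403 to 0.803. In complex III, Uqcrc1, a core protein, rose from 3250 and 3016 to 3802 and 3756 (0.27 ± 0.07, adjusted p = 0.00105). Its partner Uqcrc2 differed by 0.20 (adjusted p = 0.113), and passed without D0 replicate 2 (0.31, adjusted p = 0.0461); the Rieske protein gene Uqcrfs1 differed by 0.02 (adjusted p = 0.892).

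**Figure D3:**
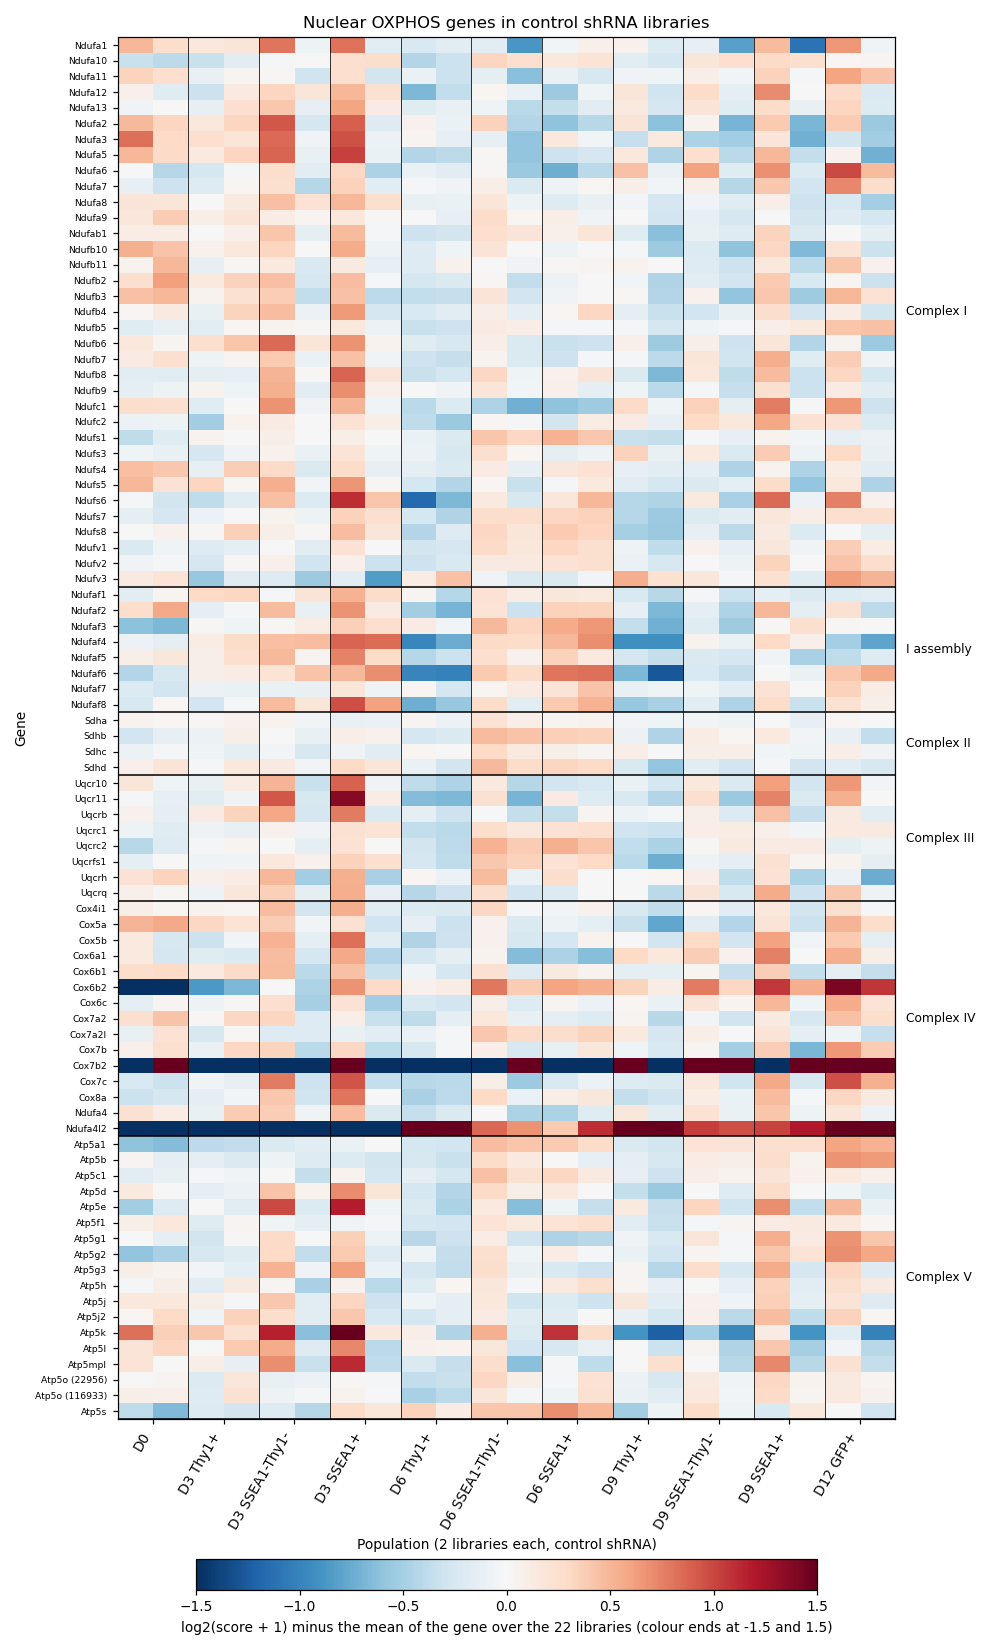
Rows are 88 of the 89 genes, grouped by complex, and columns the 22 control libraries from D0 to D12; colour is log2(score + 1) minus the gene's mean over these libraries, and colours end at -1.5 and 1.5. Most rows vary little, Ndufa4l2, Cox6b2 and Cox7b2 cross the whole colour range, and neighbouring columns of 1 group differ in many small genes at once.

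Taken in steps, the path began with Cox6b2. In Thy1+ cells at D3, 6 of the 89 genes were already higher than at D0 and 1 was lower, against 22.3% and 20.1% of all genes. From D0 to these cells fibroblast markers went from a sum of 79825 to 88047 to one of 85216 to 92077, pluripotency markers from 286 to 288 to 5350 to 6332, pericyte and smooth muscle markers from 89998 to 104140 to 46514 to 47847, and macrophage markers from 7080 to 8519 to 2103 to 2211; their part was not tested. Cox6b2 rose by 2.76 ± 0.32 (limma adjusted p = 8.17e-08). Ndufaf3 (0.62, adjusted p = 0.0114) and Ndufaf6 (0.44, adjusted p = 0.028) were higher, and Ndufv3, an accessory subunit, was lower (190 and 249 against 310 and 326, adjusted p = 0.0246). Apart from that of Cox6b2, these calls were lost without 1 library: Ndufaf3 without D3 Thy1+ replicate 1 or D0 replicate 2, Ndufaf6 without either D3 library or D0 replicate 1, and Ndufv3 without D3 replicate 1 or either D0 library (adjusted p = 0.0582 to 0.264). The 6 higher genes became 2 without D3 Thy1+ replicate 1 and 3 without D0 replicate 1.

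In SSEA1+ cells at D3, 19 genes were higher than at D0 and 5 lower (21.3% and 5.62%), against 39.7% and 32.5% of all genes. Cox6b2 rose by 4.01 ± 0.32 (limma adjusted p = 1.28e-11). The assembly partners rose together, Ndufaf4 by 0.96 ± 0.14 to 3860 and 3783 (adjusted p = 1.01e-06) and Ndufaf3 by 0.95 ± 0.19 to 119 and 111 (adjusted p = 9.87e-05). Of the 8 assembly factors 5 were higher and 0 lower. The lower genes included Ndufa4l2 (2 and 0 against 8 and 3), Ndufv3 and Cox5a (1903 and 1322 against 2318 and 2412), with differences of -1.79, -0.67 and -0.58 (adjusted p = 0.0251, 0.0031 and 0.0194). These 3 calls were lost without D3 SSEA1+ replicate 2 (adjusted p = 0.167 to 0.296), those of Ndufa4l2 and Cox5a also without D0 replicate 1, and that of Cox5a without D0 replicate 2. The count of higher genes was 12 without D0 replicate 1 and 10 without D3 SSEA1+ replicate 1, and that of lower genes 1 without D0 replicate 1 and 0 without D3 SSEA1+ replicate 2.

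From D3 to D6 in SSEA1+ cells, 7 genes were higher and 3 lower, against 23.8% and 25% of all genes; the median of the 89 genes was -0.12, which became 0.01 after centring on other short genes. Ndufa4l2 rose from 2 and 0 to 36 and 60 (limma adjusted p = 2.61e-06). Atp5a1 rose by 0.38 (adjusted p = 4.3e-06) and Ndufs1 by 0.42 (adjusted p = 0.000417). Ndufc1 and Ndufa8, accessory subunits, and Atp5g1 were lower by -0.80, -0.52 and -0.58 (adjusted p = 0.0224, 0.0122 and 0.0114), calls that were lost without D3 SSEA1+ replicate 1 or D6 SSEA1+ replicate 1 (adjusted p = 0.0568 to 0.246), and that of Ndufc1 also without D6 SSEA1+ replicate 2. Without either replicate 1 the lower count was 0, and without D3 SSEA1+ replicate 2 it was 19; the higher count was 4 without D3 replicate 2 or D6 replicate 1.

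From D6 to D9 in SSEA1+ cells, 5 were higher and 9 lower, against 22.5% and 27.0%. Of the assembly factors 4 of 8 fell, with a median of -0.44 and all 8 differences negative: Ndufaf6 went from 214 and 218 to 123 and 114 (by -0.86 ± 0.16, limma adjusted p = 7.13e-05), and Ndufaf4 from 2984 and 3430 to 2596 and 2223 (adjusted p = 0.0183). Ndufaf5 and Atp5s, a coupling factor gene, were lower (-0.52 and -0.63, adjusted p = 0.0281 and 0.0194), lost without D6 SSEA1+ replicate 1 (adjusted p = 0.172 and 0.124) or, in turn, D9 SSEA1+ replicate 2 or replicate 1. Ndufc1, Cox6a1 and Ndufa6 were higher (0.95, 0.93 and 0.80), but without D9 SSEA1+ replicate 1 none of the 3 passed (adjusted p = 0.186 to 0.475); Cox6a1 also failed without D6 SSEA1+ replicate 2, and Ndufa6 without either D6 library. Between these groups fibroblast markers went from a sum of 3449 to 3708 to one of 34600 to 34701 (9 of 9 higher), and pericyte and smooth muscle markers from 2910 to 2944 to 10008 to 10066 (7 of 8 higher, 1 lower); their part was not tested. The higher count was 1 without D9 replicate 1 and 2 without D6 replicate 2, and the lower count 5 without D6 replicate 1 and 3 without D9 replicate 2.

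From D9 SSEA1+ to D12 GFP+ cells, 5 were higher and 1 lower, against 25.5% and 33.6%, with a median of -0.01 that became 0.01 after centring. Cox7b2 went from 0 and 15 to 544 and 456 (limma adjusted p = 0.000303). Atp5b rose by 0.50 and Atp5a1 by 0.31, and Ndufaf4 fell by 0.84 on the log2 scale (adjusted p = 1.61e-05). Ndufaf6 and Ndufv3 were higher by 0.53 and 0.54 (adjusted p = 0.00566 and 0.0181); Ndufaf6 lost its call without D12 replicate 2 (adjusted p = 0.0603) and Ndufv3 without D12 replicate 1 or D9 replicate 2 (adjusted p = 0.0998 to 0.231). The higher count was 12 without D9 SSEA1+ replicate 1. These steps share libraries with each other and with the comparison of D12 with D0.

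Within a day, most of the genes called were higher in SSEA1+ than in Thy1+ cells, and the count was highest at D6. In control cells at D6, 28 of the 89 genes were higher in SSEA1+ cells and 1 was lower (31.5% and 1.12%), against 42.4% and 33.8% of all genes. The median difference was 0.25, beside 0.15 for all genes and 0.19 for other genes under 1 kb. At D3 the counts were 12 and 1 (background 35.4% and 28.8%, median 0.16 beside 0.13 for other short genes), and at D9 22 and 1 (background 38.8% and 30.0%, median 0.26 beside 0.20). The share of higher genes was below the background on all 3 days, and the share of lower genes was 1.12% on each. At D6 fibroblast markers summed to 185881 to 194916 in Thy1+ and 3449 to 3708 in SSEA1+ cells, all 9 being lower, and 7 of 8 pericyte and smooth muscle markers were lower as well. The part of this makeup in the result was not tested.

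The assembly factors differed most at D6, with 7 of 8 higher and a median of 0.78. Ndufaf6 scored 214 and 218 in SSEA1+ and 61 and 60 in Thy1+ cells, a difference of 1.82 ± 0.16 (limma adjusted p = 6.72e-11). Ndufaf4 scored 2984 and 3430 against 1077 and 1259 (1.46 ± 0.14, adjusted p = 5.93e-10), and Ndufaf8, the partner of Ndufaf5, 192 and 211 against 88 and 98 (1.11 ± 0.27, adjusted p = 0.000605). No library of one group reached the other in these 3 genes. Ndufaf2 (0.95), Ndufaf5 (0.62), Ndufaf3 (0.56) and Ndufaf7 (0.43) were also higher, and Ndufaf1 differed by 0.35 without passing. After centring on other short genes all 8 differences stayed positive and 5 passed, those of Ndufaf2, Ndufaf4, Ndufaf5, Ndufaf6 and Ndufaf8.

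The region before the start of Ndufaf4, at chr4:24897833-24898082 on the plus strand (RefSeq, GRCm38.p6), is shown because this gene had the highest score of the assembly factors and the second largest difference among them. Capitals mark NRF1 letters (GCATGCGC), which overlap on the 2 strands, and a core of the CTCF motif (AGGGGGC).
Ndufaf4: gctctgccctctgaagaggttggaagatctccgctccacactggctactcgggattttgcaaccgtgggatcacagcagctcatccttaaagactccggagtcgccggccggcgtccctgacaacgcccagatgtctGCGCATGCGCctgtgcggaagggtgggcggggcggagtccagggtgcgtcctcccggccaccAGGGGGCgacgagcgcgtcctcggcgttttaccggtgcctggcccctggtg
The gene lies at chr4:24898083-24905001, and Ndufaf6 at chr4:11051045-11076205 on the minus strand.

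Subunits of the complexes themselves were higher too. Ndufs1 scored 4402 and 4072 in D6 SSEA1+ cells against 2864 and 2636 in Thy1+ cells (0.62, limma adjusted p = 7.62e-07), and Ndufs6, a zinc-binding subunit of complex I, 213 and 268 against 84 and 119 (1.25 ± 0.33, adjusted p = 0.00136). In complex II, Sdhb scored 1469 and 1450 against 958 and 986 (0.59, adjusted p = 0.000441). In complex III, Uqcrc2 scored 4558 and 4200 against 2606 and 2386 (0.81, adjusted p = 5.32e-07), and Uqcrc1 3975 and 4076 against 2664 and 2583 (0.62, adjusted p = 1.08e-08). Atp5a1 scored 16212 and 14861 against 10242 and 10120 (0.61, adjusted p = 3.64e-10). The groups did not overlap in any of these 6 genes. In complex IV, 1 of 15 genes was higher, Cox8a (0.58, adjusted p = 0.0375), and 1 was lower. The lower one was Ndufa4l2, at 36 and 60 against 144 and 153 (-1.65 ± 0.70, adjusted p = 0.0359). Its call was lost without D6 Thy1+ replicate 1 or 2 or D6 SSEA1+ replicate 1 (adjusted p = 0.0884 to 0.187) and after quantile normalization (-1.46).

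At D3, Cox6b2 led, at 279 and 212 in SSEA1+ and 95 and 109 in Thy1+ cells (1.25 ± 0.32, limma adjusted p = 0.00143). Ndufs6 (1.03 ± 0.33, adjusted p = 0.0081) and Ndufaf8 (0.93 ± 0.27, adjusted p = 0.00382) were higher as well, but both lost their call without D3 SSEA1+ replicate 1 (adjusted p = 0.141 and 0.0552), and Ndufs6 also without D3 Thy1+ replicate 1. Sdha was lower by -0.15 (adjusted p = 0.0195), lost without D3 Thy1+ replicate 2 or either SSEA1+ library (adjusted p = 0.0574 to 0.113). The count of 12 was 6 without D3 SSEA1+ replicate 1 and 22 without replicate 2. At D9, Ndufaf4 scored 2596 and 2223 against 1117 and 1121 (1.1 ± 0.14, adjusted p = 1.6e-07) and Ndufaf6 123 and 114 against 76 and 50 (0.93 ± 0.16, adjusted p = 1.17e-05). Ndufs6 (0.82, adjusted p = 0.0307) was lost without D9 SSEA1+ replicate 1 or either Thy1+ library (adjusted p = 0.0817 to 0.437), and Ndufa4l2 (56 and 64 against 196 and 264, adjusted p = 0.0187) without Thy1+ replicate 2 or either SSEA1+ library (adjusted p = 0.0502 to 0.0981). The count of 22 was 12 without D9 Thy1+ replicate 2 and 13 without D9 SSEA1+ replicate 1. Centring lowered the counts of higher genes to 7 at D3, 22 at D6 and 14 at D9, with 2, 6 and 3 lower. Of all 13451 genes, 3178, 4305 and 3538 were then higher and 3796, 4843 and 4186 lower.

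**Figure D4:**
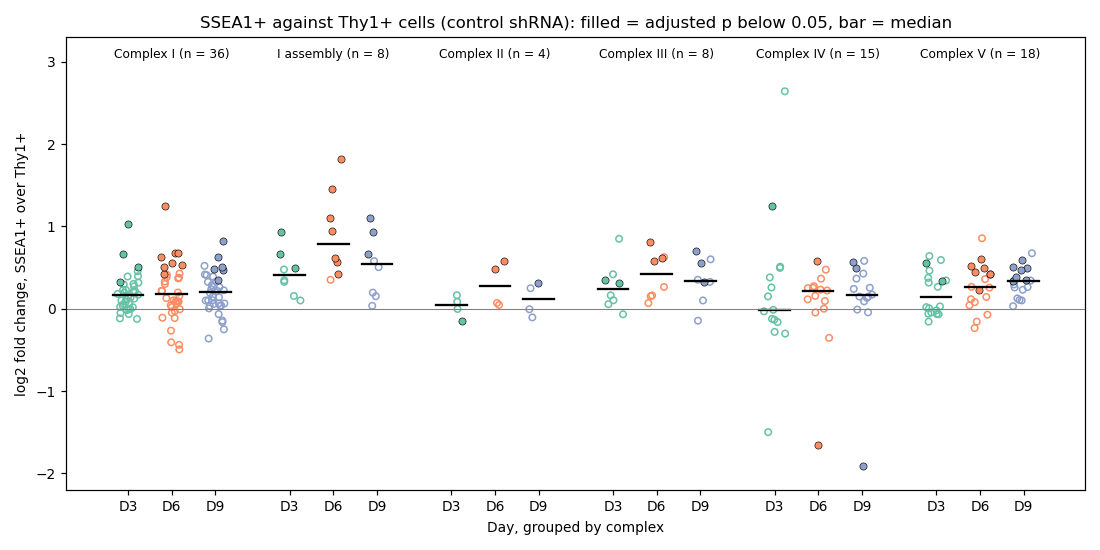
Difference of SSEA1+ from Thy1+ control cells in log2(score + 1) for each of the 89 genes at D3, D6 and D9, grouped by complex; filled points passed at adjusted p below 0.05 and bars mark the median of a complex. The assembly factors have the highest median on each day (0.41, 0.78 and 0.54), and Ndufa4l2 lies far below the other genes at D6 and D9.

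The Ctcf hairpin lowered a small set of these genes when its effect was averaged over the 11 populations. Of the 89 genes 18 were lower and 1 was higher (20.2% and 1.12%), against 25.8% and 26.2% of all genes. The median was -0.07, with 74 of 89 differences negative, beside -0.00 for all genes and -0.01 for other short genes, and it was -0.07 after centring on these. By complex the lower genes were 2 of complex I, 4 assembly factors, 2 of complex II, 4 of complex III, 2 of complex IV and 4 of complex V. The higher gene was Sdha, by 0.10 ± 0.02 (limma adjusted p = 2.67e-05), with a positive difference in 10 of 11 populations.

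Ndufa4l2 fell by 2.34 on the log2 scale on average (SE 0.21, limma adjusted p = 6.46e-10). In D6 Thy1+ cells it scored 2 and 2 under the hairpin and 144 and 153 in control cells (-5.64 ± 0.70, adjusted p = 2.87e-06), in D6 SSEA1-Thy1- cells 1 and 1 against 50 and 44 (adjusted p = 8.96e-06), and in D6 SSEA1+ cells 1 and 2 against 36 and 60 (adjusted p = 7.04e-05). At D9 it scored 24 and 31 against 196 and 264 in Thy1+ cells (adjusted p = 0.00277), 6 and 10 against 57 and 54 in SSEA1-Thy1- cells (adjusted p = 0.00576) and 12 and 13 against 56 and 64 in SSEA1+ cells (adjusted p = 0.0383). In D12 GFP+ cells it scored 46 and 42 against 132 and 168 (adjusted p = 0.0429). The groups did not overlap in any of these 7 populations, while at D0 and D3 both arms scored 9 or less. The D9 SSEA1+ and D12 calls were lost without any 1 of their 4 libraries (adjusted p = 0.0899 to 0.159) and after centring, and the D9 SSEA1-Thy1- call without shCTCF replicate 1 (adjusted p = 0.0576). Marker sums differed between the arms as well. In D6 Thy1+ cells fibroblast markers summed to 185881 to 194916 in control and 127140 to 128345 in hairpin cells, and pericyte and smooth muscle markers to 34140 to 35948 and 41484 to 49496. In D6 SSEA1+ cells the fibroblast sums were 3449 to 3708 and 4998 to 5403 and the pericyte sums 2910 to 2944 and 2156 to 2584. In D9 Thy1+ cells they were 280099 to 293546 and 247622 to 282863, and 54521 to 56615 and 68922 to 82911, and in D9 SSEA1+ cells 34600 to 34701 and 12543 to 14395, and 10008 to 10066 and 6590 to 7011. Their part in the fall of Ndufa4l2 was not tested.

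Cox7b2 was listed at 0 in every hairpin library except the D12 pair, which scored 126 and 164 against 544 and 456. Its averaged effect passed (limma adjusted p = 0.00299), although most groups held libraries at 0 in both arms. In D9 SSEA1-Thy1- cells, where control libraries scored 32 and 46 and hairpin libraries were listed at 0, the call (adjusted p = 0.0102) was lost without shCTCF replicate 2 or shLuci replicate 2 (adjusted p = 0.0532 to 0.0642).

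Among the assembly factors Ndufaf3 fell by 0.56 on the log2 scale on average (SE 0.06, limma adjusted p = 1.04e-08), and its difference was negative in all 11 populations, from -0.17 at D0 to -1.17 at D12. In D12 GFP+ cells it scored 41 and 41 under the hairpin and 94 and 93 in control cells (adjusted p = 1.98e-05), and in D6 SSEA1-Thy1- cells 72 and 60 against 130 and 116 (adjusted p = 0.000609). The D3 SSEA1-Thy1- call (adjusted p = 0.0124) was lost without any 1 library (adjusted p = 0.0633 to 0.119), and the D9 SSEA1-Thy1- call (adjusted p = 0.00926) without shCTCF replicate 2 or shLuci replicate 1 (adjusted p = 0.141 to 0.167). Ndufaf3 lies at chr9:108565537-108567434. Ndufaf7, a methyltransferase that acts on complex I, fell by 0.25 on average (adjusted p = 2.6e-05), Ndufaf6 by 0.13 and Ndufaf4 by 0.11. Atp5s fell by 0.20 (adjusted p = 0.0126), and Uqcrh, the hinge protein of complex III, by 0.24 (adjusted p = 0.0492), which was lost without any of 29 libraries taken 1 at a time, among them both D12 shCTCF libraries and D3 shLuci SSEA1+ replicate 1 (adjusted p = 0.0525 to 0.0953). Atp5a1 (-0.12), Sdhb (-0.11), Sdhc (-0.12), Uqcrc1 (-0.06), Uqcrc2 (-0.10) and Uqcrfs1 (-0.11) were lower by small amounts. The averaged effects of Uqcrc1 and Ndufaf6 did not pass after centring on other short genes (limma adjusted p = 0.249 and 0.0656). Both averages cover effects of either sign, from -0.34 at D12 to 0.25 at D0 for Uqcrc1 and from -0.59 at D12 to 0.45 in D6 Thy1+ cells for Ndufaf6.

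The effect of the hairpin was not the same in all populations. A test over all 11 found that it differed among them for 16 of the 89 genes, against 56.0% of all genes. At D0 1 gene was higher and 0 lower, against 2.93% and 3.75% of all genes, namely Uqcrc1 at 3348 and 4120 against 3250 and 3016 (limma adjusted p = 0.0356), lost without shCTCF replicate 2 or either control library (adjusted p = 0.0594 to 0.705). At D3, counts were 0 higher and 0 lower in Thy1+ cells (background 1.46% and 2.56%) and in SSEA1+ cells (3.56% and 3.22%), and 0 higher and 1 lower in SSEA1-Thy1- cells (2.34% and 2.54%). At unadjusted p below 0.05, limma gave 0 higher and 1 lower in D3 Thy1+ cells and 5 lower in D3 SSEA1+ cells. In D3 SSEA1+ cells the median was -0.22 with 82 of 89 differences negative, beside -0.10 for other short genes.

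At D6 few genes passed in Thy1+ and SSEA1+ cells, and the sign of the median depended on the population. The median was 0.21 in Thy1+ cells (78 of 89 positive, other short genes 0.18) and 0.31 in SSEA1+ cells (76 positive, other short genes 0.21), and -0.13 in SSEA1-Thy1- cells (59 negative, other short genes -0.01). After centring on other short genes these medians were 0.02, 0.11 and -0.11. The counts were 2 higher and 1 lower in Thy1+ cells (background 6.83% and 7.56%) and 4 higher and 1 lower in SSEA1+ cells (11.2% and 11%). After centring they became 0 higher and 2 lower, and 2 higher and 5 lower. Of all 13451 genes, 150 were then higher and 1022 lower in Thy1+ cells, and 440 and 1727 in SSEA1+ cells. Sdha scored 4210 and 4354 against 3708 and 3376 in Thy1+ cells (0.28, limma adjusted p = 0.00121), and Atp5f1, the b subunit of the stalk, 5094 and 5206 against 4288 and 4232 (0.27, adjusted p = 0.0204). In SSEA1+ cells Atp5g1 scored 1162 and 1331 against 750 and 772 (0.71, adjusted p = 0.00669), Ndufaf8 274 and 444 against 192 and 211 (0.79, adjusted p = 0.036), and Ndufb5 was higher by 0.44 (adjusted p = 0.0376). Without D6 shCTCF SSEA1+ replicate 2 these 3 calls were lost (adjusted p = 0.0802, 0.421 and 0.462) and the count of higher genes was 0; it was 13 without shCTCF replicate 1, and 1 and 2 without shLuci replicate 1 and 2. Those of Ndufaf8 and Ndufb5 were also lost without either control library, as was that of Atp5f1 without any 1 of its 4 libraries (adjusted p = 0.072 to 0.119). Sdha and Atp5f1 in Thy1+ cells and Ndufb5 in SSEA1+ cells did not pass after centring.

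In SSEA1-Thy1- cells 16 genes were lower and 0 higher at D6, against 21.9% and 20.2% of all genes, and 16 lower and 0 higher at D9, against 13.4% and 14.6%. At D6 the lower genes held 4 assembly factors and 3 genes each of complexes I, III and V. Atp5a1 scored 13000 and 12494 under the hairpin and 17022 and 16450 in control cells (-0.39, limma adjusted p = 5.2e-06), Sdhb 1171 and 1008 against 1590 and 1545 (-0.53, adjusted p = 0.00317), and Uqcrc2 3470 and 2928 against 4500 and 4085 (-0.43, adjusted p = 0.00425). At D9 the median was -0.36 (86 of 89 negative, other short genes -0.21). Uqcrc1 scored 2779 and 3070 against 3688 and 3704 (-0.34, adjusted p = 0.000799), Ndufaf6 68 and 64 against 104 and 95 (-0.58, adjusted p = 0.00759) and Ndufa11, a membrane-arm subunit, 438 and 328 against 603 and 552 (-0.60, adjusted p = 0.0166). The groups did not overlap in these 6 cases. The D6 count was 5 without shCTCF replicate 2 and 6 without shLuci replicate 1, and Atp5s (-0.61, adjusted p = 0.0281) was among the calls lost without shCTCF replicate 2 or either control library (adjusted p = 0.0933 to 0.28). The D9 count was 3 without shCTCF replicate 2, 5 without shLuci replicate 1, 9 without shLuci replicate 2 and 3 after centring. After centring, 370 of all 13451 genes were lower and 2648 higher in the D9 SSEA1-Thy1- comparison. At D6 8 of 9 fibroblast markers were higher under the hairpin (sum 58153 to 58570 against 26948 to 27643). At D9 1 was higher and 4 lower (84517 to 88422 against 89264 to 89431). The part of these markers was not tested.

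In the other D9 populations few genes passed: 0 higher and 2 lower in Thy1+ cells (background 7.51% and 12.1%) and 1 higher and 1 lower in SSEA1+ cells (4.80% and 9.04%). In Thy1+ cells the median was 0.10, and -0.03 after centring, and Atp5a1 scored 8493 and 9336 against 10570 and 10146 (-0.22, limma adjusted p = 0.00826), lost without shCTCF replicate 1 or shLuci replicate 1 (adjusted p = 0.0947 to 0.165) and after centring. In SSEA1+ cells Sdha was higher by 0.17 (adjusted p = 0.0374), lost without either hairpin library or shLuci replicate 2 (adjusted p = 0.0746 to 0.348) and after centring. At D0 the median went from 0.02 to -0.05 with centring.

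The most genes fell in D12 GFP+ cells. Under the Ctcf hairpin 41 of the 89 genes were lower and 0 higher (46.1% lower), against 24.7% lower and 24.6% higher of all genes. The median was -0.52, with 88 of 89 differences negative, beside -0.07 for all genes and -0.29 for other genes under 1 kb. The lower genes were 19 of 36 in complex I, 7 of 8 assembly factors, 1 of 4 in complex II, 4 of 8 in complex III, 7 of 15 in complex IV and 3 of 18 in complex V, so complexes II and V had the smallest shares.

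Among complex I subunits, Ndufb3, a small membrane subunit, scored 194 and 222 under the hairpin and 515 and 424 in control cells (-1.17 ± 0.31, limma adjusted p = 0.00322). Ndufa1, another, scored 60 and 50 against 192 and 118 (-1.44 ± 0.44, adjusted p = 0.0089), lost without shCTCF replicate 2 or shLuci replicate 1 (adjusted p = 0.063 to 0.114). Of the assembly factors, Ndufaf7 scored 156 and 173 against 322 and 273 (-0.85 ± 0.14, adjusted p = 2.25e-05) and Ndufaf8 87 and 77 against 172 and 156 (-0.99 ± 0.27, adjusted p = 0.00363). In all 4 genes hairpin and control libraries did not overlap. In complex II, Sdhc, a membrane anchor, scored 728 and 745 against 992 and 891 (-0.35, adjusted p = 0.00304), and Sdha differed by -0.04 (3445 to 3668 against 3622 to 3683, adjusted p = 0.577), with overlap.

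In complex III, Uqcr10, a small subunit, scored 284 and 276 against 724 and 450 (-1.03 ± 0.34, limma adjusted p = 0.0146), and Uqcrc1 2940 and 3032 against 3802 and 3756 (-0.34 ± 0.07, adjusted p = 0.0003). In complex IV, Cox6b2 scored 236 and 246 against 465 and 368 (-0.78, adjusted p = 0.0475), Cox7b 1214 and 1196 against 2326 and 1924 (-0.81, adjusted p = 0.0404) and Cox7c 1093 and 1093 against 2374 and 1759 (-0.90, adjusted p = 0.0413). In complex V, Atp5b scored 28441 and 28597 against 34312 and 33313 (-0.25, adjusted p = 0.0179) and Atp5a1 15990 and 15605 against 18606 and 17637 (-0.20, adjusted p = 0.00656). Among the genes named, Atp5b, Atp5a1 and Uqcrc1, with high scores, thus differed by smaller amounts than several small subunits. The genes also differ in transcript length, with 1916 bp for Atp5b and 2572.5 bp for Atp5a1 against 419 bp for Ndufa1 and 540 bp for Cox7c. Other genes under 1 kb were lower at the median in this comparison too, and the part of length was not tested.

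The count at D12 rested on single libraries. It was 7 without shLuci replicate 1, 14 without shCTCF replicate 2, 17 without shCTCF replicate 1 and 32 without shLuci replicate 2. After centring on other short genes it was 15, with a median of -0.26 and 75 of 89 differences negative. Of all 13451 genes, 661 were then lower and 4026 higher. Among those 15 were Ndufaf3 (-0.91), Ndufaf7 (-0.59), Ndufaf8, Ndufb3, Ndufa1, Uqcr10 and Atp5g1. Atp5b, Atp5a1, Sdhc, Uqcrc1, Cox6b2, Cox7b and Cox7c, given above as lower, did not pass after centring (limma adjusted p = 0.0641 to 0.931). Atp5b and Atp5a1 then differed by 0.02 and 0.06. In the control pair the median deviation of the 89 genes was 0.269 and -0.036 and in the hairpin pair -0.359 and -0.331, and for other short genes 0.0469 and -0.106 against -0.289 and -0.295. Fibroblast markers summed to 37924 to 38368 under the hairpin against 12984 to 13770 (8 of 9 higher), pericyte and smooth muscle markers to 11091 to 11102 against 4572 to 4633 (6 of 8 higher, 1 lower), and pluripotency markers to 39277 to 39457 against 59586 to 60072 (1 of 11 lower); their part was not tested. CTCF-core letters stood in the window (250 bases before to 50 after the start) of 3 of the 35 lower genes with a window and of 8 of all 73 genes with a window.

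**Figure D5:**
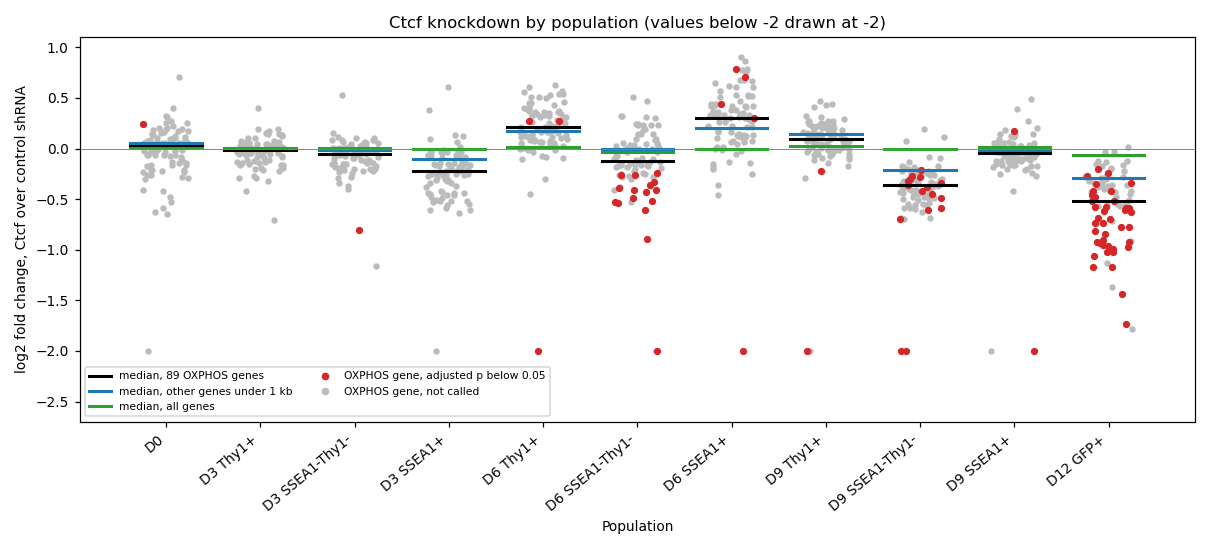
Difference of Ctcf hairpin from control cells in log2(score + 1) for each of the 89 genes in the 11 populations. Red points passed at adjusted p below 0.05, and values below -2 are drawn at -2. Short bars mark the medians of the 89 genes (black), of other genes under 1 kb (blue) and of all genes (green) in each population. The black bar is above 0 at D6 in Thy1+ and SSEA1+ cells (0.21 and 0.31) and lowest in D12 GFP+ cells (-0.52). In these populations the blue bar lies on the same side of 0.

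Centring also moved the balance of calls over all genes. The percentage of calls that were higher went from 56.4% to 45.8% for SSEA1+ against Thy1+ at D9, from 48.8% to 61.4% for D6 against D3 and from 45.5% to 56.0% for D9 against D6 in SSEA1+ cells. For the hairpin it went from 43.9% to 28.7% at D0, 52.5% to 64.3% in D3 SSEA1+, 47.5% to 12.8% in D6 Thy1+, 50.3% to 20.3% in D6 SSEA1+, 38.2% to 11.2% in D9 Thy1+, 34.7% to 21.7% in D9 SSEA1+, 52.3% to 87.7% in D9 SSEA1-Thy1- and 49.9% to 85.9% in D12 GFP+ cells. The median of all genes shifted by more than 0.1 in 10 comparisons. It went from -0.01 to 0.12 for D12 against D0, from 0.09, 0.15 and 0.13 to -0.01, -0.04 and -0.02 for SSEA1+ against Thy1+ at D3, D6 and D9, and from -0.00 to 0.12 for D6 against D3. For the hairpin it went from 0.02 to -0.18 in D6 Thy1+, from 0.00 to -0.20 in D6 SSEA1+, from 0.02 to -0.11 in D9 Thy1+, from 0.00 to 0.23 in D9 SSEA1-Thy1- and from -0.07 to 0.19 in D12 GFP+ cells. On the centred scale the 89 genes' medians were 0.19 for D12 against D0, 0.06, 0.07 and 0.11 for SSEA1+ against Thy1+ at D3, D6 and D9, all positive as before. For D6 against D3 the median turned from -0.12 to 0.01. For the hairpin it went from 0.21 to 0.02 in D6 Thy1+, from 0.31 to 0.11 in D6 SSEA1+, from -0.36 to -0.13 in D9 SSEA1-Thy1- and from -0.52 to -0.26 in D12 GFP+ cells, and turned from 0.10 to -0.03 in D9 Thy1+ cells.

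At day 10 of retroviral reprogramming no change of these genes was detected with CTCF overexpression. Of the 89 genes 0 passed in each of 3 comparisons that share groups, against 0.0618% of all genes for CTCF against control, 0.0773% for CTCF with the Smarca5 hairpin against CTCF alone and 0.101% against control; at unadjusted p below 0.05 limma also gave 0 of the 89. The medians were 0.07, 0.00 and 0.07. At the median gene the 2 control libraries differed by less than the sampling noise of counts of that size, and they were counted as 1 sample, so the fit had 2 residual degrees of freedom. Ctcf itself was higher by 2.16 ± 0.25 without passing (adjusted p = 0.217), and Smarca5 lower by -1.06 ± 0.07 (adjusted p = 0.0695), and over all genes the 3 comparisons called 8, 10 and 13.

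The widest differences with CTCF ran from -0.18 for Atp5g3 to 0.52 for Cox7b2, which scored 627 and 430 with CTCF, 296 and 424 with CTCF and the Smarca5 hairpin, and 338 and 388 in the control (0.52 ± 0.34, limma adjusted p = 0.936). Ndufaf3 scored 182 and 204 with CTCF, 210 and 247 with the added hairpin, and 173 and 177 in the control, differences of 0.24 between the first 2 groups and 0.38 against control. Ndufa4l2 scored 2584 to 3268 in the 6 libraries and Atp5a1 10816 to 13280, with overlap of the CTCF and hairpin groups. Scores of this table were normalized apart from those of the sorted cells and are not set beside them. Some scores recurred: Atp5b scored 20814 in all 6 libraries, so no difference could show for it. Atp5h and Cox8a both scored 3689 and 3651 in the control. The part of the normalization in the absence of calls was not tested.

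The authors' deposited table for CTCF overexpression held 88 of these genes and gave 0 of them a p below 0.05 in either direction, against 0.790% moving with Ctcf and 1.56% moving opposite to it among its 27846 genes above the floor value. The table does not state whether its p is adjusted. The authors' deposited table for the Ctcf hairpin at day 10 gave 11 genes in the direction of Ctcf and 14 opposite to it a p below 0.05, against 5.71% and 6.03% of its 29161 genes above the floor. In the authors' deposited table, Ctcf fell by 0.34 on the log2 scale, Atp5g2 by 0.39 (p = 5.37e-05) and Ndufaf3 by 0.36 (p = 0.0345), and Cox6a1 (0.36, p = 4.35e-33), Uqcr11 (0.41, p = 7.16e-10) and Ndufv3 (0.23, p = 0.00403) were higher. Ndufa4l2 differed by 0.11 in the authors' deposited table (p = 0.0687). These 7 genes were picked after their values were seen.

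In the single MEF and iPSC libraries, 87 of the genes were measured as counts, and with 1 library each there is no replicate check. On the log2(CPM + 1) scale 24 were over 2-fold higher in iPSCs and 0 in MEFs, against 26.0% and 24.1% of all genes, with a median of 0.59 beside 0.03. Ndufa4l2 had 13 counts in MEFs of 16593659 and 564 in iPSCs of 9912018 (a difference of 5.02). Cox6a1 had 1907 and 5629 (2.29), Cox7c 924 and 2145 (1.94), Cox8a 1680 and 3508 (1.80) and Cox6b2 51 and 99 (1.43). Atp5a1 had 9162 and 5616, a difference of 0.04, unlike in the sorted series, and Cox7a2l, which helps join complexes III and IV, was lower by -0.96 (816 and 245). The pericyte and smooth muscle marker sum was 119061 counts in MEFs and 5553 in iPSCs.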

How the data were processed

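The sorted-cell and day 10 tables hold an expression score per gene and library, deposited by the authors. Per the submitters' processing notes the tools were Trim Galore, FastQC and RSEM on GRCm38 (mm10), and mm9 is named for the MEF and iPSC libraries; versions and parameters are not given in the sources used here. The deposited scores are whole numbers whose library totals nearly coincide, so they were read as normalized and rounded, not as reads. The normalization is not named, the depth of each library is unknown, and no count model was used. The MEF and iPSC files hold raw counts per gene, deposited by the authors, with 16593659 and 9912018 in total. The authors' deposited comparison tables hold group levels, a log2 fold change and a p-value, columns identified here from their arithmetic, with directions set by Ctcf itself.

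Scores were tested as log2(score + 1) with limma 3.58.1 in R 4.3.3, with a mean-variance trend, all groups of a table in 1 fit and Benjamini-Hochberg adjustment over all genes; every gene met the filter of a score of 10 in 2 libraries. The sorted fit had 22 residual degrees of freedom and the day 10 fit 2. The single-population effects of the hairpin share the spread of all 22 groups, and an F test asked whether they differ among populations. Python 3.11.15 with pandas 2.3.3, numpy 2.4.6 and matplotlib 3.10.9 did the rest. The D12 against D0 comparison was also run on simulated scores with noise drawn independently for each gene. Such scores hold no shared shift of short genes between libraries, so the run cannot show how that shift affects the calls. The day 10 control libraries were averaged, since their chi-square statistic per gene relative to counting noise was 1.72 on average and 0.327 at the median, against 3.28 to 54.6 and 1.59 to 11.6 in the other 24 pairs. MEF and iPSC counts were compared as log2(CPM + 1), with no test.

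Of 56 samples, 4 (day 10 hairpin libraries) stand in no column of the score tables and enter through the authors' comparison only. Transcript lengths and gene coordinates come from GENCODE vM21 (GRCm38). The members and all gene lists were chosen with earlier results of these data known. Named genes are core subunits and isoform pairs, then the called genes with no overlap between libraries and the largest change, 6 per direction for D12 against D0 and the average hairpin effect, 4 for D6 SSEA1+ against Thy1+ and 3 elsewhere; others named were chosen after their values were seen. Alternatives were another pseudocount (8), a mean score of 100, quantile normalization, no trend, compared libraries only, a replicate block, each library left out and, chosen after seeing the data, centring on other genes under 1 kb. Marker lists for skeletal muscle and adipocytes were also summed, with 3 genes of each in the sorted table. So were lists for endothelial cells, keratinocytes and trophoblast, with 4, 3 and 5 genes. In control cells the trophoblast sum was 174 to 180 at D0 and 2848 to 2963 in D9 SSEA1+ cells. In D12 GFP+ cells it was 2574 to 2581 under the Ctcf hairpin and 1345 to 1372 in control cells. The part of these markers was not tested. The values of 1 complex I gene are not reported here by name; it is included in the counts and medians.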

Additional observations from a re-analysis of the deposited data

Results flagged for a closer look

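For 16 genes the effect of the Ctcf hairpin differed among the 11 sorted populations by limma's F test. The adjusted p-values were 0.000113 for Ndufa4l2, 0.000158 for Uqcrc1, 0.000682 for Atp5a1, 0.00163 for Ndufaf6, 0.0077 for Ndufa11, 0.0096 for Ndufaf7, 0.0101 for Ndufs7 and 0.0126 for Atp5f1. They were 0.0159 for Atp5g1, 0.0208 for Ndufaf8, 0.024 for Ndufaf4, 0.0328 for Atp5b, 0.036 for Sdhc, 0.0437 for Sdhd, 0.0449 for Atp5o (ENSMUSG00000116933) and 0.0463 for Ndufaf5.

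For Ndufa4l2 the effect ran from -5.64 in D6 Thy1+ to 0.61 in D3 SSEA1+ cells, where scores were near 0 in both arms. Uqcrc1 ran from -0.34 in D12 GFP+ cells to 0.25 at D0, Ndufaf7 from -0.85 in D12 GFP+ cells to 0.12 at D0, and Atp5a1 from -0.39 in D6 SSEA1-Thy1- to 0.07 in D9 SSEA1+ cells. Atp5g1 (-0.57 to 0.71), Ndufaf8 (-0.99 to 0.79) and Ndufa11 (-0.62 to 0.47) were lowest in D12 GFP+ and highest in D6 SSEA1+ cells. Ndufaf6 ran from -0.59 in D12 GFP+ to 0.45 in D6 Thy1+ cells, and Ndufs7 from -0.41 in D6 SSEA1-Thy1- to 0.21 in D6 SSEA1+ cells. After centring on other genes under 1 kb, 5 of the 89 genes passed this test.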

How the results depend on the processing

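None of the 107 gene values went from a call in one direction to a call in the other. Among values without a call, 4 differences of D12 from D0 turned from negative to positive with centring. These were Sdha (-0.02 to 0.11), Sdhb (-0.04 to 0.09), Ndufa4 (-0.12 to 0.001) and Atp5g3 (-0.01 to 0.12). The medians and balances of calls that turned with centring are given in the results. With only genes of mean score 100 or more, 0 genes were lower in SSEA1+ than Thy1+ cells at D6 and at D9. With quantile normalization 0 were lower at D3 and at D6, and 3 lower at D3 SSEA1+ against D0. With only the compared libraries in the fit, the lower counts were 12 for D12 against D0, 0 and 4 for SSEA1+ against Thy1+ at D3 and D6, 2 each for D3 Thy1+ and SSEA1+ against D0, and 1, 5 and 3 for D6 against D3, D9 against D6 and D12 against D9, and the higher count for D9 against D6 was 1.

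After centring on other short genes, chosen after seeing the data, the higher counts were 31 for D12 against D0, 7 and 14 for SSEA1+ against Thy1+ at D3 and D9, and 16, 9 and 13 for the steps from D3 to D6, D9 and D12. In those steps 3146, 2566 and 2870 of all 13451 genes were higher after centring. The lower counts were 2, 6 and 3 for SSEA1+ against Thy1+ at D3, D6 and D9, 8 for D3 SSEA1+ against D0, 5 for D6 against D3 and 2 for D12 against D9. Of all genes, 4216 were then lower for D3 SSEA1+ against D0, 1978 for D6 against D3 and 3509 for D12 against D9. The averaged hairpin effect gave 2 higher, the single populations together 3 higher (8 before) and 45 lower (79 before), and the F test 5. A pseudocount of 0.1 CPM moved the MEF and iPSC median from 0.595 to 0.598. The cause of these changes was not tested.

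Nothing in the labels ties libraries of the same number, and the replicate numbers were not taken as pairs: over 231 pairs of groups the correlation of deviations ran from -0.279 to 0.525, above 0.1 in 96. With a replicate block 52 genes were lower under the hairpin in D12 GFP+ cells (41 without) and 21 in D9 SSEA1-Thy1- cells (16 without), the lower counts were 12 for D12 against D0, 2 for D3 Thy1+ against D0, 10 for D6 against D3 and 2 for D12 against D9, and the F test gave 29.

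With each library left out in turn, the lone library of a group being assumed to vary like the other groups, the higher counts ranged over 12 to 19 (D12 against D0), 6 to 22 and 12 to 30 (SSEA1+ against Thy1+ at D3 and D9), 2 to 5 (D3 Thy1+ against D0), 10 to 28 (D3 SSEA1+ against D0), 4 to 9 (D6 against D3), 1 to 6 (D9 against D6) and 4 to 12 (D12 against D9). The lower counts ranged over 2 to 11 (D12 against D0), 0 to 1 (SSEA1+ against Thy1+ at D3, D6 and D9), 0 to 2 (D3 Thy1+ against D0), 0 to 6 (D3 SSEA1+ against D0), 0 to 19 (D6 against D3), 3 to 9 (D9 against D6) and 1 to 2 (D12 against D9). The averaged hairpin effect gave 1 to 2 higher. The single populations together gave 4 to 17 higher and 45 to 88 lower, 45 without D12 shLuci replicate 1 and 51 without D12 shCTCF replicate 2, and the F test 10 to 23, 10 without D12 shCTCF replicate 2 or D12 shLuci replicate 1 among others. Of 107 gene values, 45 lost and 2 gained a call when some library was left out, and 12 lost and 6 gained one with centring. The scores carry no depth, which limits what low values such as those of Ndufa4l2 and Cox7b2 can show.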

Other observations

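Genes around the respiratory chain were measured in the same fit. Of 15 transcriptional regulators of mitochondrial genes, 12 were higher and 1 lower in D12 GFP+ cells than at D0 (limma, Benjamini-Hochberg adjusted p below 0.05), with a median of 0.81, against 40.1% and 40.2% of all genes, and 13 were higher in SSEA1+ than in Thy1+ cells at D6 (median 1.01), against 42.4% of all genes. Between D0 and D12 the coactivator gene Ppargc1b rose by 3.44 ± 0.32 (adjusted p = 1.6e-10), the mitochondrial transcription factor gene Tfam by 1.06 ± 0.09 (adjusted p = 3.16e-11), the methyltransferase gene Tfb1m by 1.77 ± 0.13 and Nrf1, which binds promoters of respiratory genes, by 0.81 ± 0.06 (adjusted p = 1.36e-12). Tfb2m was lower by -0.61. The list includes Myc, which the cassette itself supplies, and Esrrb, which is also on the list of pluripotency markers used here. Under the Ctcf hairpin at D12, Tfb1m (-1.08, adjusted p = 2.1e-07), Tfam (-0.41, adjusted p = 0.00057), Polrmt, the mitochondrial RNA polymerase (-0.38, adjusted p = 0.000935), and Nrf1 (-0.35, adjusted p = 2.8e-05) were lower. Of all genes 24.7% were lower and 24.6% higher in that comparison. The genes named are part of the list, and its other members are not given for the hairpin.

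Of 42 genes of the mitochondrial ribosome, 37 were higher and 0 lower in D6 SSEA1+ cells (median 0.78), 20 were higher and 4 lower at D12 against D0 (median 0.18), and 17 were lower and 0 higher under the hairpin at D12, where all 42 differences were negative (median -0.32). In D6 SSEA1+ against Thy1+ cells 42.4% of all genes were higher and 33.8% lower, and under the hairpin at D12 24.7% were lower. Of 23 genes of the tricarboxylic acid cycle, 14 were higher and 4 lower in D6 SSEA1+ cells, and 8 were higher and 10 lower at D12 against D0, where 40.1% and 40.2% of all genes were. Of 25 genes of cytochrome c and its partners, 16 were higher and 1 lower in D6 SSEA1+ cells and 16 lower under the hairpin at D12. Of 21 assembly factors of other complexes, the same 2 comparisons gave 12 higher and 3 lower, and 8 lower. Other genes under 1 kb were lower under the hairpin at D12 as well. Their median deviations were -0.289 and -0.295 in the hairpin pair and 0.0469 and -0.106 in the control pair. The counts and medians of these lists are given without centring, and the part of transcript length in them was not tested. Of 7 mitochondrial carriers, 1 was higher and 2 were lower in D6 SSEA1+ cells. At day 10, 0 genes of these 6 lists passed with CTCF overexpression.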
